A study of Vitis rotundifolia with 36 samples.

Results

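The 60 gene models described here were selected on their layer 2 level in the muscadine grape (Vitis rotundifolia) cultivar Granny Val, out of 26394 gene models counted in each library. They were chosen by a ratio: the mean of the 3 Granny Val layer 2 libraries in CPM (the count as a share of the library's total, scaled by the usual factor) plus 0.5, over the highest mean of layers 1, 3 and 4 plus 0.5. Only the 8913 gene models with a layer 2 mean of at least 10 CPM were ranked, and a stretch of neighbouring models on chromosome 15 was left out before ranking. Granny Val values are therefore a description of the choice, and the layer pattern was tested in Alachua and Supreme, whose libraries took no part in it.

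Polyadenylated RNA from mature berries was sequenced for cultivars that the labels set apart by skin: Alachua has thick and Supreme thin purple skin, and Granny Val has green skin of intermediate thickness. Each berry was dissected into 4 layers numbered from the outside inwards, with 3 libraries for every cultivar and layer, so that the 12 groups held 36 libraries, all from untreated field-grown fruit. Layer 2 is the hypodermis in the protocol and the exocarp in the sample tags, while layers 1, 3 and 4 are epidermis with cuticle, mesocarp and endocarp in the protocol but cuticle, endocarp and seed in the tags. The layers are called by number because these names differ. In grapes generally, the hypodermis lies under the epidermis and together with it forms the skin. Its cells have thick walls and store phenolic compounds, including the pigments of coloured cultivars, while the mesocarp below it is the juicy flesh. Each dissected layer is a mixture of cells, so fewer cells of a type and less RNA per cell cannot be told apart.

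Identifiers name a chromosome and a model's number on it. Since 0 of 26394 were found in the reference gene table and the files hold no gene names, no role, position or sequence is given for any member. The 60 members lay on 19 of the 20 chromosomes. Chromosome 6 held 9 (15% of members beside 4.93% of all gene models) and chromosome 8 held 7 (11.7% beside 5.9%). Chromosome 19, with 4.75% of all gene models, held 0. There were 3 pairs within 10 model numbers of each other. Those were evm.model.chr6.1603 with evm.model.chr6.1612, evm.model.chr6.1612 with evm.model.chr6.1620, and evm.model.chr7.1377 with evm.model.chr7.1378, named after their numbers were seen.

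Library totals ran from 19057538 to 61782400 counts, at which 3 counts came to between 0.0486 and 0.157 CPM in 1 library. Scores from other gene models of Granny Val (374 high in layer 1, 280 high in layers 3 and 4, members left out) placed 18 of the 24 Alachua and Supreme libraries with their labelled layer. The other 6 stood apart. Alachua layer 2 replicate 3 lay nearest the inner layers, Alachua layer 3 replicate 1 nearest layer 1, and Alachua layer 4 replicates 2 and 3 nearest layer 2. Supreme layer 1 replicate 1 lay nearest layer 2, and Supreme layer 2 replicate 1 nearest layer 1. The split was not clear-cut for every library kept. Alachua layer 1 replicate 1 scored 1.366 for layer 1, between Granny Val layer 1 (3.179 to 3.639) and layer 2 (-0.873 to -0.5). Alachua layer 4 replicate 1 scored 0.435 for the inner layers. That was below the lowest inner library of Granny Val (1.949) and below Alachua layer 2 replicate 3 (1.217). Many counts and medians that rest on the 6 libraries that stand apart are given with and without them. Values of single members are listed in replicate order, so those from these libraries can be told even where they are not marked. The scores come from genes that follow the same layers, so leaving out these libraries is not independent of the layer comparisons. The names of 25 libraries open with a number and those of 11 do not, and the labels do not say what this marks.

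In Granny Val the members' layer 2 means ran from 10.2 to 655 CPM, with a median of 30.4 CPM. Their medians in the other layers were 11.3 CPM in layer 1, 9.66 CPM in layer 3 and 6.91 CPM in layer 4. The ratio that chose them ran from 1.97 to 7.39 with a median of 2.41, against a median of 0.795 over all gene models ranked. The next highest layer after layer 2 was layer 1 for 26 members, layer 3 for 30 and layer 4 for 4. At the limit, evm.model.chr18.1310 was the last inside at a ratio of 1.97, with 28.4 CPM in layer 2, 13.3 CPM in layer 1 and 14.1 CPM in layer 3. The first outside, evm.model.chr7.1299, had a ratio of 1.96 with 10.6 CPM in layer 2, 5.15 CPM in layer 1 and 4.69 CPM in layer 3, so nothing in these values separates one side of the limit from the other.

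The layer 2 excess in Granny Val was not carried evenly by its libraries. For 26 of the 60 members, 1 layer 2 library held more CPM than the other two combined, which was replicate 1 for 12 members, replicate 2 for 13 and replicate 3 for 1. Replicates 1 and 2 exceeded the highest mean of the other layers in 57 and 58 members, and replicate 3 did so in 40. In 22 members every layer 2 library was above each of the 9 libraries of layers 1, 3 and 4, beside 1.14% of the 8913 gene models ranked, a share that the rule itself bears on. The member with the largest ratio, evm.model.chr9.116, had 1.77, 69.4 and 1.14 CPM in the layer 2 libraries, against 2.62, 5.57 and 0.296 CPM in layer 1. It was high in 1 library alone, and its other 2 layer 2 libraries overlapped layers 1, 3 and 4.

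The member with the second largest ratio, evm.model.chr13.2360, had 658, 637 and 221 CPM in Granny Val layer 2. In the other layers it had 68.9, 90.5 and 85.2 CPM in layer 1, 154, 88.9 and 55.2 CPM in layer 3, and 33.3, 13.7 and 59.1 CPM in layer 4. All 3 layer 2 libraries were above all 9 others. In Alachua the same gene model had 215, 635 and 26.4 CPM in layer 2 against 406, 156 and 180 CPM in layer 1, and the layers overlapped. In Supreme it had 134, 201 and 302 CPM in layer 2 against 243, 115 and 197 CPM in layer 1, which overlapped as well. The libraries with 134 and 243 CPM stand apart. Without them these layers of Supreme did not overlap, with 201 and 302 CPM against 115 and 197 CPM.

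**Figure D1:**
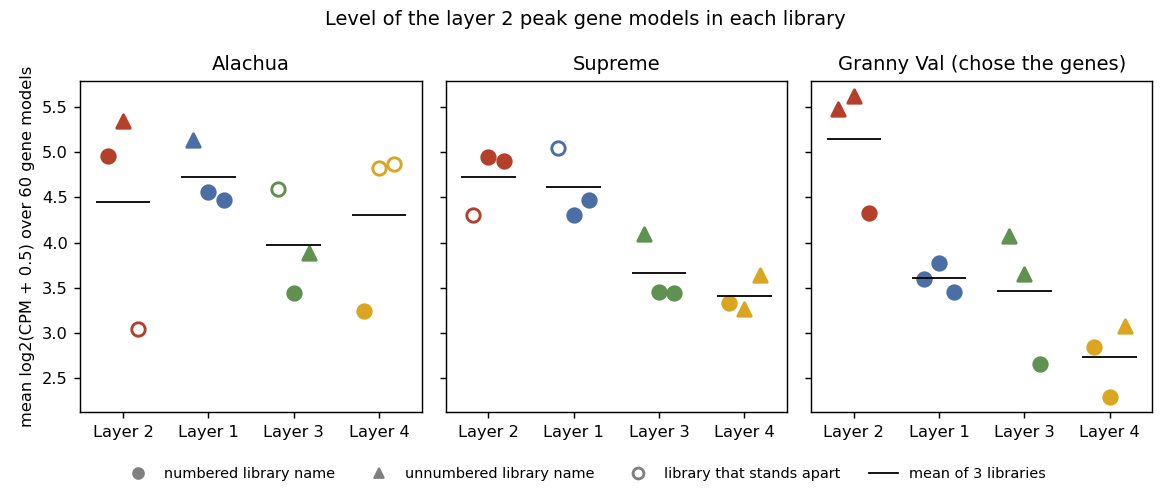
The mean of log2(CPM + 0.5) over the 60 members in each library (vertical axis) by layer, for Alachua, Supreme and Granny Val; circles are libraries with numbered and triangles with unnumbered names, open symbols are libraries that stand apart and bars are means of 3 libraries. Layer 2 lies above the other layers in Granny Val, which chose the members, while in Alachua and Supreme, over all libraries, the libraries of layer 1 overlap those of layer 2.

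Outside Granny Val, over all libraries, those of layer 1 overlapped those of layer 2 in the members' level, as the plot of levels by library shows. The mean of log2(CPM + 0.5) over the 60 members was 4.96, 5.34 and 3.04 in the Alachua layer 2 libraries. It was 5.13, 4.56 and 4.47 in layer 1, 4.59, 3.44 and 3.88 in layer 3, and 3.24, 4.82 and 4.87 in layer 4 of Alachua. The low layer 2 library and the highest library of layer 3 and both high libraries of layer 4 are the ones that stand apart. In Supreme the same mean was 4.31, 4.95 and 4.90 in layer 2, 5.05, 4.31 and 4.47 in layer 1, 4.09, 3.45 and 3.44 in layer 3, and 3.33, 3.27 and 3.64 in layer 4. Layers 2 and 1 overlapped there, though not without replicate 1 of each, which stands apart. Every library of both was above every library of layers 3 and 4. In Granny Val it was 5.48, 5.62 and 4.33 in layer 2, 3.60, 3.77 and 3.45 in layer 1, 4.07, 3.65 and 2.66 in layer 3, and 2.85, 2.29 and 3.08 in layer 4.

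By group means, the order of layers in Granny Val was also that of Supreme, and that of Alachua only without the libraries that stand apart. The level over members in Alachua was 4.45 ± 1.24 in layer 2, 4.72 ± 0.36 in layer 1, 3.97 ± 0.58 in layer 3 and 4.31 ± 0.92 in layer 4 (log2 scale, SD, n = 3 each). In Supreme it was 4.72 ± 0.36 in layer 2, 4.61 ± 0.39 in layer 1, 3.66 ± 0.37 in layer 3 and 3.41 ± 0.20 in layer 4. In Granny Val, where the rule put layer 2 highest but did not order the others, it was 5.15 ± 0.71 in layer 2, 3.61 ± 0.16 in layer 1, 3.46 ± 0.72 in layer 3 and 2.74 ± 0.41 in layer 4. Leaving out the libraries that stand apart, Alachua had 5.15 ± 0.27 in layer 2 (n = 2), 4.72 ± 0.36 in layer 1 (n = 3), 3.66 ± 0.31 in layer 3 (n = 2) and 3.24 in its 1 layer 4 library. Supreme then had 4.93 ± 0.04 in layer 2 (n = 2) and 4.39 ± 0.12 in layer 1 (n = 2). With these libraries left out, both cultivars had layer 2 as their highest group by this mean, as Granny Val has, but with a smaller step to layer 1. The median over members of the log2 ratio of layer 2 to layer 1 was then 0.25 in Alachua and 0.48 in Supreme, against 1.47 in Granny Val, where the rule chose it.

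Outside Granny Val, the number of members with their highest layer mean in layer 2 depended on the libraries that stand apart. With all libraries it was 19 of the 60 in Alachua, with 29 highest in layer 1, 4 in layer 3, 7 in layer 4 and 1 at 0 counts throughout. Over the 18704 gene models tested there, 18.8% had their highest mean in layer 2. In Supreme, 27 of the 60 were highest in layer 2, 21 in layer 1, 4 in layer 3 and 7 in layer 4, where the share over all gene models tested was 20.5%. Without the libraries that stand apart, 32 members in Alachua and 36 in Supreme had their highest mean in layer 2, beside 13.9% and 16.3% of the 19978 gene models tested then.

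Few members had every layer 2 library above every library of layers 1, 3 and 4. In Alachua there was 1, evm.model.chr20.255, and in Supreme 0. Among all gene models tested the share was 0.134% in Alachua and 0.348% in Supreme. With those 6 left out, 12 members did so in Alachua (2 libraries against 6) and 21 in Supreme (2 against 8), beside 1.68% and 2.22% of all gene models.

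**Figure D2:**
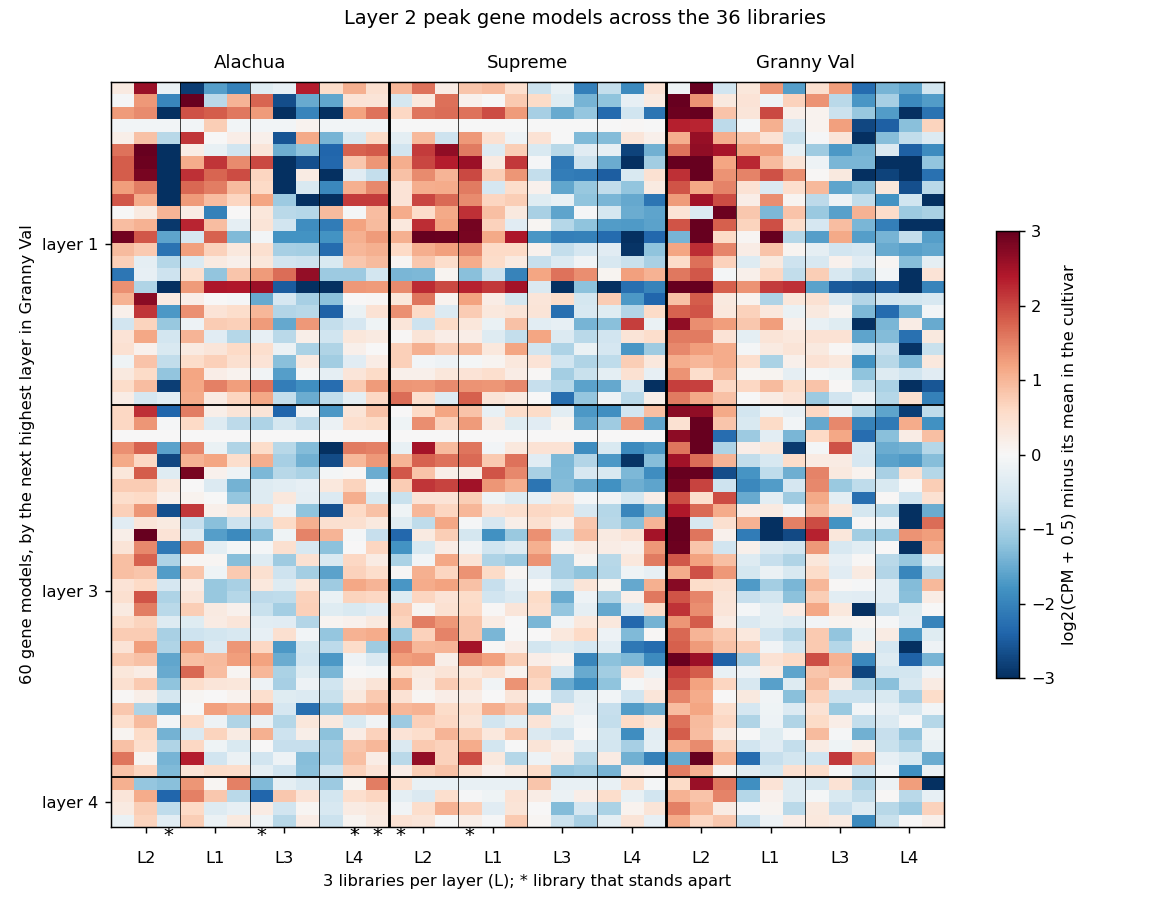
Each of the 60 members (rows, grouped by their next highest layer in Granny Val) in each of the 36 libraries (columns, 3 per layer); colour is log2(CPM + 0.5) minus the member's mean over the 12 libraries of that cultivar, so that levels cannot be compared between cultivars. Red fills layer 2 of Granny Val, where 60 of 60 members have their highest mean, and is divided between layers 2 and 1 in Alachua (19 and 29 members) and Supreme (27 and 21).

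The members were also split by their next highest layer in Granny Val. Of the 26 members for which it was layer 1, 8 had a higher mean in layer 2 than in layer 1 in Alachua, and 12 in Supreme. Of the 30 for which it was layer 3, 15 did so in Alachua and 21 in Supreme. Both sets were mostly above layer 3, with 19 of 26 and 24 of 30 in Alachua, and 23 of 26 and 25 of 30 in Supreme. Against layer 4 the median log2 ratio of layer 2 was 0.17 for the 26 and 0.24 for the 30 in Alachua, and 1.40 for the 26 and 0.92 for the 30 in Supreme. With the 6 libraries left out, the Alachua medians were 2.69 for the 26 and 1.56 for the 30, so that their order turned, and the Supreme medians were 1.51 and 1.00. Above layer 1 there were then 12 of the 26 and 21 of the 30 in Alachua, and 17 of the 26 and 24 of the 30 in Supreme. Above layer 3 there were 23 of the 26 and 28 of the 30 in Alachua, and 24 of the 26 and 26 of the 30 in Supreme. The difference between these sets was not tested, since the rule's own values define them.

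Each member was tested in the 24 Alachua and Supreme libraries with edgeR's quasi-likelihood test, and p-values were adjusted after Benjamini and Hochberg over the 18704 gene models tested. A call needed an adjusted p under 0.05 and a change of at least 2-fold. No fold minimum applied to the difference between Alachua and Supreme in layer 2 excess. Of the 60 members, 58 passed the filter on low counts. The labels do not say whether the libraries of a group came from separate plants or extractions, so the p-values measure the spread between these libraries.

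Against layer 1, no member was called higher in layer 2. In Alachua 0 of 58 were called, beside 0% of all gene models, with 4 higher at an unadjusted p under 0.05 and 2 called by DESeq2. In Supreme 0 were called, beside 0% of all, with 0 higher at an unadjusted p under 0.05 and 0 called by DESeq2. Averaged over both cultivars 0 were called, beside 0% of all, with 3 higher at an unadjusted p under 0.05 and 2 called by DESeq2. Over all 18704 gene models, 2938 in Alachua, 395 in Supreme and 2274 averaged had an unadjusted p under 0.05 in either direction. DESeq2 called 338, 20 and 181 gene models higher in turn. The median log2 fold change of the members was -0.04 in Alachua, 0.07 in Supreme and 0.01 averaged, next to medians of 0.00, 0.00 and -0.01 over all gene models tested. With all 24 libraries, the members were thus centred where all gene models were in this comparison. Without the 6 libraries that stand apart, the members' median was 0.37 in Alachua and 0.54 in Supreme. All gene models tested then had a median of 0.00 in each.

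Against layer 3, the members lay mostly above 0 while few passed the test. In Alachua 47 of 58 had a positive fold change with a median of 0.71, yet 0 were called, beside 0% of all gene models, with 6 higher at an unadjusted p under 0.05 and 1 called by DESeq2. In Supreme 51 of 58 were positive with a median log2 fold change of 1.17, and 1 was called higher, beside 0.016% of all. There 16 were higher and 1 lower at an unadjusted p under 0.05, and DESeq2 called 4 higher and 1 lower. Averaged over both cultivars, 54 of 58 were positive with a median of 0.80, and 1 was called higher beside 0.0214% of all and 1 lower beside 0.0535% of all. At an unadjusted p under 0.05, 15 were higher and 1 lower on average, and DESeq2 called 7 higher and 1 lower. Over all gene models tested, 45.1% were positive in Alachua, 49% in Supreme and 48.3% averaged. Of all 18704, 853 in Alachua, 3303 in Supreme and 2320 averaged had an unadjusted p under 0.05 in either direction. DESeq2 called 4, 831 and 177 gene models higher and 161, 486 and 402 lower in turn. Without the 6 libraries that stand apart, the members' median was 1.36 in Alachua and 1.21 in Supreme.

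Against layer 4, which cultivar had the larger median depended on the libraries that stand apart. With all libraries, in Supreme 50 of 58 members were positive with a median log2 fold change of 1.09, and 1 was called higher, beside 0.0481% of all gene models. There 23 were higher and 1 lower at an unadjusted p under 0.05, and DESeq2 called 16 higher. In Alachua 38 of 58 were positive with a median of 0.16, and 0 were called, beside 0% of all, with 2 higher at an unadjusted p under 0.05 and 0 called by DESeq2. Averaged, 50 of 58 were positive with a median of 0.62, and 0 were called, beside 0.00535% of all, with 13 higher at an unadjusted p under 0.05 and 7 called by DESeq2. Over all 18704 gene models, 630 in Alachua, 4053 in Supreme and 2122 averaged had an unadjusted p under 0.05 in either direction. DESeq2 called 168, 1161 and 488 gene models higher in turn. Positive fold changes made up 53.4% of all gene models tested in Alachua, 48.5% in Supreme and 52.1% averaged. Both Alachua layer 4 libraries that stand apart, 4.82 and 4.87 on the log2 scale over members, were at the height of layer 2. With the 6 libraries left out, the median was 1.66 in Alachua, with 56 of 59 positive, and 1.35 in Supreme, with 51 of 59 positive.

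**Figure D3:**
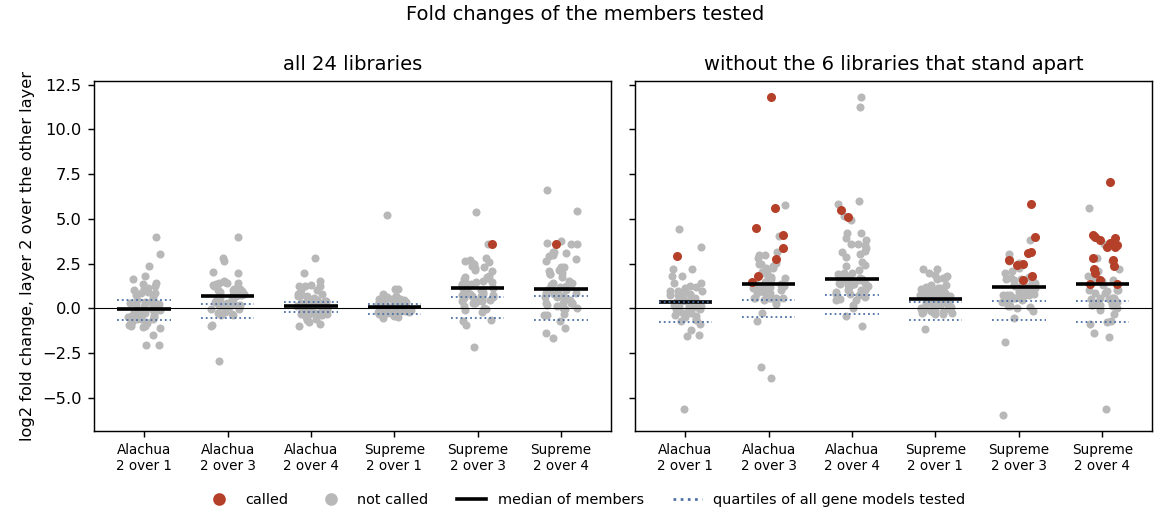
Log2 fold changes of layer 2 over layers 1, 3 and 4 for the members tested in Alachua and Supreme, with all 24 libraries (left, 58 members) and without the 6 that stand apart (right, 59 members); red points are called, bars are members' medians and dotted lines the quartiles of all gene models tested. The members' medians lie above 0 in both panels, except for Alachua against layer 1 on the left (-0.04). The counts called rise on the right, except in Supreme against layer 1.

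Without the libraries that stand apart, 19978 gene models and 59 of the members could be tested. Alachua layer 4 then had 1 library, which was taken to vary like the other groups. Since layer scores chose the libraries left out, the counts called are not independent of the layer comparisons. Against layer 3, 8 members were called higher in Alachua beside 0.951% of all gene models, 9 in Supreme beside 1.28%, and 22 averaged over both beside 3.4%. Against layer 4, 2 were called in Alachua beside 0.295% of all, 17 in Supreme beside 1.95%, and 21 averaged beside 2.25%. Against layer 1 the counts were 1 in Alachua beside 0.711% of all, 0 in Supreme beside 0.255%, and 4 averaged beside 1.59%. In Supreme against layer 1, 9 were higher at an unadjusted p under 0.05; DESeq2 was run with all 24 libraries alone. On average over both cultivars 18 members were called higher than in layer 3 and than in layer 4, beside 1.55% of all gene models. Called higher than in all of layers 1, 3 and 4 were 2 members, beside 0.025% of all. The median log2 fold change over members was 0.48 against layer 1, 1.23 against layer 3 and 1.53 against layer 4, averaged over both cultivars.

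Those 2 members were evm.model.chr11.574 and evm.model.chr6.1112, the first named after its values were seen. In Supreme evm.model.chr11.574 had 18.5, 48.8 and 44.7 CPM in layer 2, 63.1, 27.4 and 23.3 CPM in layer 1, 1.95, 4.00 and 3.42 CPM in layer 3, and 2.65, 3.50 and 3.20 CPM in layer 4. Layer 2 was above both inner layers in every library and overlapped layer 1. The libraries with 18.5 and 63.1 CPM stand apart, and without them layer 2 was above layer 1 in Supreme. In all 24 libraries evm.model.chr11.574 was called in Supreme with a log2 fold change of 3.62 (SE 0.48, edgeR adjusted p = 0.006) against layer 3 and 3.59 (SE 0.48, edgeR adjusted p = 0.0043) against layer 4. It is the 1 member called in each of these comparisons. The call against layer 3 was lost without Supreme layer 3 replicate 1 (log2 fold change 3.36, edgeR adjusted p = 0.059), and that against layer 4 without Supreme layer 4 replicate 3 (3.58, edgeR adjusted p = 0.066).

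In Alachua evm.model.chr11.574 had 29.1, 29.1 and 21.3 CPM in layer 2, against 17.2, 12.6 and 6.03 CPM in layer 1 and 12.8, 13.6 and 14.3 CPM in layer 3. Its layer 4 libraries had 21.2, 27.5 and 16.4 CPM and overlapped layer 2. The layer 2 library with 21.3 CPM and the layer 4 libraries with 27.5 and 16.4 CPM stand apart. The others did not overlap, with 29.1 and 29.1 CPM in layer 2 against 21.2 CPM in layer 4. Averaged over both cultivars evm.model.chr11.574 rose in layer 2 over layer 3 by a log2 fold change of 2.31 (SE 0.32, edgeR adjusted p = 0.012). It is the 1 member called higher there, and the call held in the 24 fits that left out 1 library each, with log2 fold changes from 2.19 to 2.49. Against layer 4 the averaged log2 fold change was 1.92 (SE 0.31, edgeR adjusted p = 0.056), and against layer 1 it was 0.62 (SE 0.30, edgeR adjusted p = 0.42). With the 6 libraries left out these were 2.21 (SE 0.36) and 1.15 (SE 0.28), though leaving them out is not independent of the layer comparisons.

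The other, evm.model.chr6.1112, had 109, 338 and 3.41 CPM in Alachua layer 2, 41.0, 29.7 and 22.8 CPM in layer 1, 45.3, 12.3 and 14.8 CPM in layer 3, and 6.31, 121 and 127 CPM in layer 4. Its low layer 2 library and both high layer 4 libraries are among those that stand apart. In Supreme it had 11.5, 76.1 and 112 CPM in layer 2, 52.2, 13.1 and 29.1 CPM in layer 1, 12.4, 9.53 and 13.6 CPM in layer 3, and 14.5, 2.09 and 6.08 CPM in layer 4. In all 24 libraries the averaged log2 fold changes were 1.73 over layer 1, 2.61 over layer 3 and 1.96 over layer 4, with edgeR adjusted p of 0.40, 0.19 and 0.38, so none passed. Without the 6 libraries they were 2.57, 3.60 and 4.42, though leaving these out is not independent of the layer comparisons. With all libraries it was the 1 gene model among the 60 with the largest ratio in each of the 3 cultivars. Without the 6 there were 4, namely evm.model.chr6.1112, evm.model.chr20.255, evm.model.chr3.671 and evm.model.chr6.1612.

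**Figure D4:**
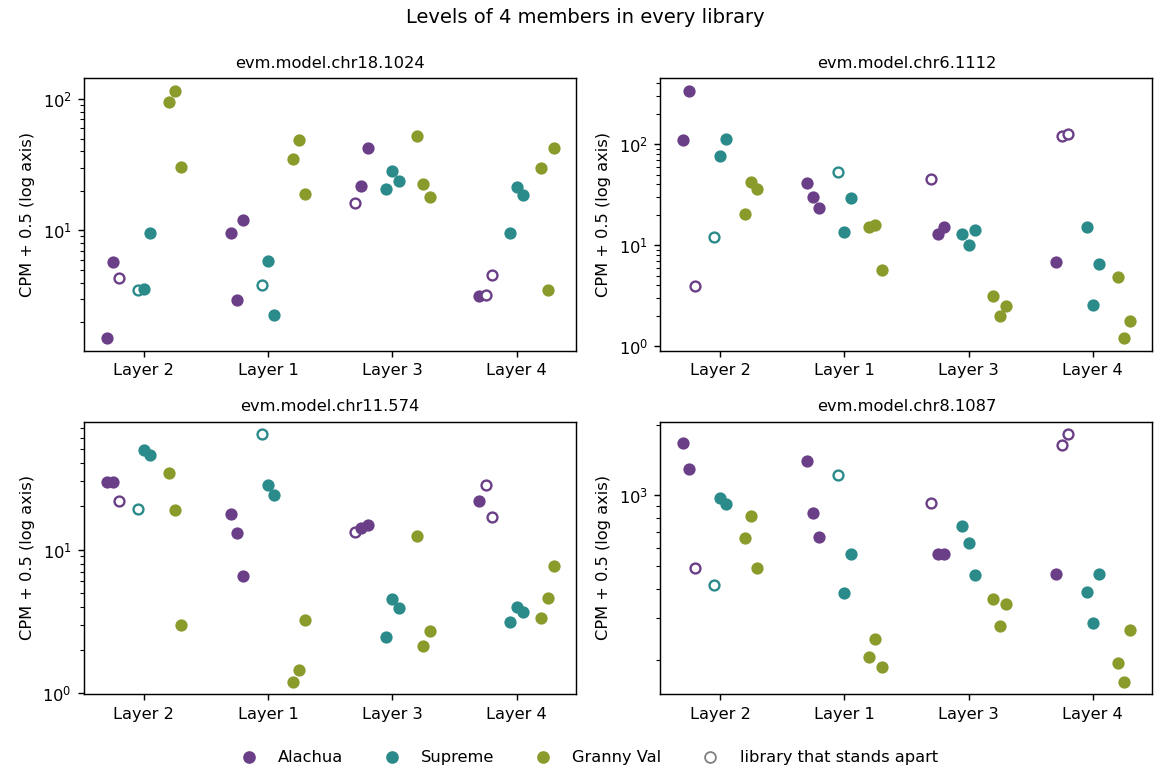
CPM + 0.5 on a log axis in every library of Alachua, Supreme and Granny Val by layer, for evm.model.chr18.1024, evm.model.chr6.1112, evm.model.chr11.574 and evm.model.chr8.1087; open circles are libraries that stand apart. The 3 Supreme libraries of layers 3 and 4 lie below those of layer 2 for evm.model.chr11.574, and layer 3 of Alachua and Supreme lies above layer 2 for evm.model.chr18.1024.

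A single member was called lower in layer 2. evm.model.chr18.1024 had 1.01, 5.23 and 3.88 CPM in Alachua layer 2 against 15.8, 21.2 and 41.8 CPM in layer 3, and 3.01, 3.10 and 9.10 CPM in Supreme layer 2 against 20.1, 27.8 and 23.4 CPM in layer 3. Every layer 2 library was below every layer 3 library in both cultivars. In Granny Val it had 94.5, 115 and 29.9 CPM in layer 2 against 52.1, 22.1 and 17.6 CPM in layer 3. Averaged over Alachua and Supreme it fell by 2.54 on the log2 scale in layer 2 relative to layer 3 (SE 0.47, edgeR adjusted p = 0.04). Of the 24 fits with 1 library fewer, 17 lost that call (edgeR adjusted p up to 0.16), while the log2 fold change stayed between -2.93 and -2.31. It had the smallest ratio of layer 2 to the highest other layer in both cultivars, 0.145 in Alachua and 0.23 in Supreme, and also without the 6 libraries, at 0.113 in Alachua and 0.272 in Supreme.

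The remaining members at the ends of the range outside Granny Val differed between the cultivars. With all libraries, the largest ratio in Alachua, 3.11, belonged to evm.model.chr20.255. Without the 6 libraries its ratio was 4.10, below the 7.08 of evm.model.chr6.1112. It had 20.9, 67.3 and 12.0 CPM in Alachua layer 2, against 11.5, 10.0 and 9.61 CPM in layer 1. All 3 layer 2 libraries were above the 9 others of Alachua, though the averaged log2 fold change over layer 3 of 1.75 (SE 0.54, edgeR adjusted p = 0.18) was not called. In Supreme it had 27.0, 65.6 and 22.9 CPM in layer 2 against 49.3, 24.7 and 14.4 CPM in layer 1, and the layers overlapped. With all libraries, evm.model.chr2.169 had the second largest ratio in Alachua, 2.51, and the second smallest in Supreme, 0.373 (0.524 without the 6 libraries, no longer the second smallest). It had 179, 1251 and 211 CPM in Alachua layer 2, where 1 library held most of the sum, and 28.4, 177 and 248 CPM in Supreme layer 2 against 179, 200 and 837 CPM in Supreme layer 4.

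In Supreme the largest ratios with all libraries were 2.09 for evm.model.chr6.1112 and 1.75 for evm.model.chr8.2243. Without the 6 libraries they were 4.40 for evm.model.chr8.2213, named after its values were seen, and 4.37 for evm.model.chr6.1112, while evm.model.chr8.2243 had 2.45. evm.model.chr8.2243 had 33.8, 61.6 and 52.6 CPM in Supreme layer 2, 37.9, 24.8 and 21.3 CPM in layer 1, and 26.3, 3.72 and 7.61 CPM in layer 4. Of its values, 33.8 and 37.9 CPM are from libraries that stand apart. Its log2 fold change over layer 4 was 1.97 (SE 0.56, edgeR adjusted p = 0.093) and was not called. At the low end in Alachua, evm.model.chr18.187 had a ratio of 0.245, with 2.58, 7.30 and 0.306 CPM in layer 2 against 39.0, 1.31 and 5.90 CPM in layer 1, where 1 library was high.

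The members with the highest layer 2 level in Granny Val were abundant in all cultivars. evm.model.chr8.1087 had 660, 816 and 489 CPM in Granny Val layer 2, against 205, 244 and 186 CPM in layer 1 and 363, 279 and 345 CPM in layer 3. In Alachua it had 1671, 1289 and 491 CPM in layer 2 against 1399, 838 and 667 CPM in layer 1, and in Supreme 417, 971 and 919 CPM in layer 2 against 1222, 384 and 565 CPM in layer 1. The low layer 2 libraries of both cultivars stand apart, as does the highest layer 1 library of Supreme. Averaged over both cultivars without the 6 libraries, the log2 fold change of evm.model.chr8.1087 was 1.10 (SE 0.22) over layer 3 and 1.53 (SE 0.27) over layer 4. In all 24 libraries these were 0.59 (edgeR adjusted p = 0.57) and 0.40 (edgeR adjusted p = 0.76).

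evm.model.chr6.204 had 367, 1367 and 206 CPM in Granny Val layer 2, against 227, 301 and 212 CPM in layer 1 and 11.2, 2.70 and 16.6 CPM in layer 4. In Supreme it had 417, 607 and 457 CPM in layer 2, 890, 377 and 566 CPM in layer 1, and 40.2, 165 and 308 CPM in layer 4, so that it was high in both outer layers. In Alachua it had 158, 325 and 3.00 CPM in layer 2 and 206, 152 and 174 CPM in layer 1. Of its values, 417 and 890 CPM in Supreme and 3.00 CPM in Alachua are from libraries that stand apart. Averaged over both cultivars its log2 fold change of layer 2 over layer 1 was -0.18 (SE 0.74, edgeR adjusted p = 1).

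Most members were measured well above background outside Granny Val. In layer 2, 45 of the 60 averaged at least 10 CPM in Alachua and 48 in Supreme, with medians over members of 29.1 CPM in Alachua, 23.7 CPM in Supreme and 30.4 CPM in Granny Val. In 3 members, noted after their values were seen, the layer 2 mean was below 1 CPM in both Alachua and Supreme, and of these 2 are an adjacent pair. evm.model.chr7.1378 had 0 counts in all 24 Alachua and Supreme libraries, which allows up to 0.0027 CPM over their summed counts, and 15.2, 19.5 and 0 CPM in Granny Val layer 2. evm.model.chr7.1377 had 22 counts in 3 of those 24 libraries, and 16.2, 15.6 and 1.42 CPM in Granny Val layer 2. These are the members that were not tested with all 24 libraries. The third, evm.model.chr3.514, had counts in 15 of the 24 libraries, with a layer 2 mean of 0.721 CPM in Alachua, 0.109 CPM in Supreme and 23.1 CPM in Granny Val. For members at or near 0, the layer pattern was not detectable in Alachua and Supreme.

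Between the purple cultivars, layer 2 levels of the members were compared in the same fit. Of 58 members, 0 were called between Alachua and Supreme, beside 0.727% of all gene models called in either direction, with 9 at an unadjusted p under 0.05 (8 higher in Alachua, 1 lower) and 3 called by DESeq2. Over all gene models, 2933 of 18704 had an unadjusted p under 0.05, and DESeq2 called 384 higher and 663 lower in Alachua. The median log2 fold change of Alachua over Supreme was 0.14, with quartiles of -0.50 and 0.82. An interaction term tested whether the excess of layer 2 over the mean of layers 1, 3 and 4 differed between Alachua and Supreme. For it 0 members were called, beside 0% of all, with 4 at an unadjusted p under 0.05 and 0 called by DESeq2. Over all gene models, 1952 of 18704 had an unadjusted p under 0.05, and DESeq2 called 126 positive and 486 negative. The median over members of the difference in excess was -0.49 on the log2 scale, and 14 of 58 were positive. Without the 6 libraries it was 0.30 with 40 of 59 positive, so its direction turned with them.

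When the rule was applied to each of the other cultivars, it mostly chose other gene models. The 60 with the largest ratio in Alachua shared 4 gene models with the members, 6.67% of each list, and the 60 in Supreme shared 3, which is 5%. They shared, without the libraries that stand apart, 8 in Alachua, 13.3% of each list, and 14 in Supreme, 23.3%. The lists were the first 60 of 8950 gene models ranked in Alachua and of 9580 in Supreme (8928 and 9098 without the 6 libraries). Whether the overlap exceeds that of lists drawn at random was not tested. The ratio at the 60th place was 1.46 in Alachua and 1.59 in Supreme, against 1.97 in Granny Val, all with every library used, and 1.73 in both Alachua and Supreme without the 6 libraries. Over the members, the median ratio was 0.80 in Alachua and 0.993 in Supreme, next to medians of 0.883 and 0.847 over the gene models ranked in each. Without the 6 libraries it was 1.07 in Alachua and 1.16 in Supreme, next to 0.797 and 0.806, so that in Alachua the members lay below the ranked gene models with these libraries and above them without.

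The kind of library name moved with the members' level. Of the 8 groups that hold both kinds, 7 had a higher mean of log2(CPM + 0.5) over members in their unnumbered libraries, and the eighth, Alachua layer 3, did so once its library that stands apart was left out. In Granny Val layer 2 the 2 unnumbered libraries averaged 5.55 and the numbered library 4.33, a difference of 1.22, while the mean difference over all gene models tested was 0.39. In Granny Val layer 3 the difference was 1.20 over members and 0.40 over all. Granny Val layer 2 holds 2 unnumbered libraries and layer 1 none. Among numbered Granny Val libraries alone, the level over members was 4.33 in layer 2 (n = 1), 3.61 in layer 1 (n = 3), 2.66 in layer 3 (n = 1) and 2.57 in layer 4 (n = 2), and 41 of the 60 were highest in layer 2. Choosing the 60 in those libraries alone kept 9 of the members. Unnumbered libraries also detected more gene models, 16950 to 19478, against 13955 to 17956 in numbered ones. Its bearing on the choice in Granny Val was not tested. In Alachua and Supreme, a fit with the kind of name as a covariate gave the same counts of calls.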

How the data were processed

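Polyadenylated RNA was made into libraries with a directional kit, per the labels' protocols. The submitters' processing notes name HTSeq 0.11.2, STAR, cutadapt, DESeq2 and SAMtools, without their roles. Genome build and strand setting of the counting: not given in the sources used here. Reads of overlapping or near-identical genes may therefore be shared. The deposited values are whole-number counts per gene model, 1 table per library. The 5 special counter lines, 11.7% to 18.3% of all counted reads, were left out of totals and tests.

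CPM was computed here from library totals. The main fit used edgeR 4.0.16 in R 4.3.3 on the 24 Alachua and Supreme libraries, with TMM scaling, the filterByExpr function by group, 8 group means (16 residual degrees of freedom), quasi-likelihood tests and Benjamini-Hochberg adjustment over all gene models tested. SE is that of the fitted log2 fold change. DESeq2 1.42.0 was an alternative. The code was tested on simulated data. Alternatives covered scaling, filters, sets of libraries, covariates and the choice of members. Counts of 0 allow up to 3 counts, which covers counting error only.

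Members and lists were chosen with earlier results of these data known. Named are the 2 members with the largest ratio, those at the limit, the 2 with the largest and the 2 with the smallest ratio in Alachua and in Supreme, and the 2 highest in Granny Val layer 2. The rule also allowed 2 in each direction of those called between Alachua and Supreme, of which there were none. Others were named after their values were seen.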

Additional observations from a re-analysis of the deposited data

How the results depend on the processing

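Counts of members called higher in layer 2 depended most on the libraries that stand apart and on the test. Without those 6 libraries they were, against layers 1, 3 and 4 in turn, 1, 8 and 2 in Alachua, 0, 9 and 17 in Supreme, and 4, 22 and 21 averaged, where all 24 gave 0, 0 and 0, then 0, 1 and 1, then 0, 1 and 0. DESeq2 gave 2, 1 and 0, then 0, 4 and 16, then 2, 7 and 7, and 3 between Alachua and Supreme in layer 2 (0 by edgeR). Over all gene models, DESeq2 called 338, 4 and 168 higher, then 20, 831 and 1161, then 181, 177 and 488. Between the cultivars it called 384 higher and 663 lower in Alachua. Fitting all 36 libraries gave 4 in Supreme against layer 4, beside 320 of all gene models, where the main fit called 9. Averaged against layer 4, median-ratio size factors, library totals alone and no filter each gave 1, with shares over all gene models not given here. With numbered library names alone the counts in Supreme and averaged against layer 3 were 0; too few such libraries remained to compare with layer 4 in Supreme or averaged, or for the interaction. The cause of these shifts was not tested, and the 6 libraries left out were chosen by layer scores.

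The choice of members mattered too. A minimum of 20 CPM kept 43 of the 60. It gave 1 between Alachua and Supreme, where the main fit called 0.727% of all gene models. In Supreme against layer 3 and against layer 4, and averaged against layer 3, it gave 0. Choosing in numbered Granny Val libraries kept 9 and gave 0 in those 3 comparisons. A pseudocount of 2 kept 57, and keeping the models of chromosome 15 kept 60. Leaving out 1 Granny Val layer 2 library kept between 34 and 47.

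Leaving out 1 of the 24 libraries gave 0 to 2 in Supreme against layer 3, with 2 without Alachua layer 3 replicate 1 and 0 without Supreme layer 3 replicate 1. Against layer 4 in Supreme it gave 0 to 5, with 5 when Alachua layer 3 replicate 1 was out, 2 when replicate 3 of that group was out, 3 when Supreme layer 4 replicate 1 was out and 0 when its replicate 3 was. Averaged, it gave 1 to 6 against layer 3, with 6 without Alachua layer 3 replicate 1, and 0 to 1 against layer 4, with 1 without any of Alachua layer 1 replicate 3, Alachua layer 3 replicate 1, Supreme layer 1 replicate 1 and Supreme layer 2 replicate 1. Between Alachua and Supreme it gave 0 to 1, with 1 without Supreme layer 2 replicate 3. Shares over all gene models are not given for these fits, so a rise among members cannot be told from a general rise. The count was 0 throughout, lowest 0 and highest 0, against layer 1 in each cultivar and averaged, against layers 3 and 4 in Alachua, and for the interaction. The median log2 fold change over members in Alachua ran from -0.49 to 0.38 against layer 1 and from -0.30 to 0.56 against layer 4, lowest without layer 2 replicate 2 and highest without layer 2 replicate 3.

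Deviations from the group mean had a median correlation across gene models of -0.014 between libraries with the same replicate number. It ran from -0.515 to 0.426 over 36 pairs within a cultivar. The 6 libraries that stand apart were included and enter the group means, so these values cannot decide whether the numbers pair libraries. With a replicate block, 1 member was called between Alachua and Supreme, with the share over all gene models not given here. In that fit evm.model.chr18.1024 lost its call against layer 3 (log2 fold change -2.55, edgeR adjusted p = 0.088). With 3 libraries a group and spread between libraries of 1 group up to 1.24 on the log2 scale over members, a difference that passed no test is not shown to be absent.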

Other observations

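A run of 3 members spanning 17 model numbers on chromosome 6 was noted after the values were seen. evm.model.chr6.1620 had 330, 779 and 526 CPM in layer 2 of Granny Val and 156, 360 and 144 CPM in its layer 1. In Supreme it had 228, 684 and 558 CPM in layer 2, 458, 267 and 287 CPM in layer 1 and 66.4, 58.7 and 37.0 CPM in layer 4. evm.model.chr6.1603 had 138, 352 and 128 CPM in Granny Val layer 2, against 6.59, 7.13 and 0 CPM in layer 2 of Alachua and 5.59, 22.4 and 10.9 CPM in layer 2 of Supreme. evm.model.chr6.1612 had 10.6, 58.9 and 1.42 CPM in Granny Val layer 2, 29.0, 38.4 and 3.26 CPM in Alachua layer 2 and 3.93, 28.7 and 9.51 CPM in Supreme layer 2. In Alachua evm.model.chr6.1620 had 341, 203 and 8.53 CPM in layer 2 and 8.01, 406 and 404 CPM in layer 4. The low layer 2 library and both high layer 4 libraries stand apart. With all libraries, all 3 members were lowest by mean in layer 4 in Granny Val and Supreme, and none of them in Alachua. In Alachua layer 4 replicate 1, which does not stand apart, evm.model.chr6.1620, evm.model.chr6.1603 and evm.model.chr6.1612 had 8.01, 0.372 and 0.591 CPM. Each was below every Alachua library of layers 1, 2 and 3 that does not stand apart. Without the 6 libraries all 3 were thus lowest in layer 4 of Alachua too, by 1 library. Cultivar differences of these members were not tested, since Granny Val values chose them.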
